A study of Arabidopsis thaliana with 21 samples.

Results

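The MYB genes of Arabidopsis thaliana were followed through 4 lists of chromatin regions, those of the proteins FIE, AZF1 and BPC1 and of the histone mark H3K27me3. The members were the 105 nuclear protein-coding genes whose symbol is MYB plus digits, of 27444 protein-coding genes in all. The 10 MYB genes of wax and suberin synthesis (MYB9, MYB30, MYB39, MYB41, MYB53, MYB92, MYB93, MYB94, MYB96 and MYB107) were left out by that rule. A MYB gene was assigned to FIE, AZF1 or BPC1 when the summit of a region, its highest point, lay in the gene or within 1 kb of it. It was assigned to H3K27me3 when a region touched the same window.

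MYB proteins bind DNA through repeats of a helix-turn-helix domain, and in plants most of them carry the paired repeats R2 and R3. They switch branches of secondary metabolism, cell fate in the epidermis, cell wall thickening, anther development and stress responses on or off, usually each in a narrow set of cells. FIE belongs to Polycomb repressive complex 2 (PRC2), the enzyme that trimethylates lysine 27 of histone H3 and keeps developmental genes silent outside their own tissue. AZF1, a C2H2 zinc finger protein, and BPC1, a BASIC PENTACYSTEINE protein that binds GA repeats, are DNA-binding factors linked to PRC2 recruitment in this plant.

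Chromatin immunoprecipitation and sequencing was done on untreated whole plants aged 30 h under 16 h of light and 8 h of dark, in 21 samples forming 7 groups of 3 labelled biological replicates. FIE was precipitated through an HA tag from fie-11 mutants of the C24 ecotype carrying pFIE:FIE-HA, a copy under its own promoter. AZF1 and BPC1 were precipitated through Myc tags from Col plants carrying gAZF1-Myc or gBPC1-Myc. H3K27me3 was precipitated from Col plants without a transgene. The controls were input of the FIE-HA plants in C24, input of the gAZF1-Myc plants in Col for both factors, and histone H3 from Col without a transgene for the mark. FIE was thus measured in another accession than the other 3. Each list holds 1 set of regions with no replicate column and was taken as pooled over replicates, so no value below has a replicate error, and depth is unknown because no read counts are given. The fold enrichment of a region is the authors' value over its control and was compared only within its own list. In whole plants, a region present in few cells and a weak region present in all cells cannot be told apart. The MYB genes compared with each other below were selected on the positions of the regions in these lists, so all counts and folds are descriptions without a test.

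H3K27me3 was the list that most MYB genes met. It held 64 of the 105 (61%), against 27.3% of all protein-coding genes. FIE was assigned to 20 MYB genes (19%, against 9.33% of all genes), AZF1 to 16 (15.2%, against 9.88%) and BPC1 to 15 (14.3%, against 5.87%). FIE and H3K27me3 together were assigned to 17 (16.2%, against 6.18%), and AZF1 and BPC1 together to 9 (8.57%, against 3.45%). All 4 lists met at 5 MYB genes (4.76%, against 1.13% of all genes): MYB4, MYB26, MYB111, MYB117 and MYB119. At the other end, 38 MYB genes had H3K27me3 and none of the 3 proteins (36.2%, against 18.9% of all genes), and 35 were in none of the lists (33.3%, against 63.1%). None of the 105 lay in gene-poor parts of the chromosomes (15 windows of 1 Mb holding under 100 protein-coding genes each), and with genes there left out the shares of all genes were 9.38% for FIE and 27.6% for H3K27me3. The MYB genes had a median length of 1762 bp, against 2078 bp for all protein-coding genes, and the 20 with FIE a median of 1877 bp.

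Other large families of transcription factors, NAC and WRKY, give a scale for these shares. FIE was assigned to 20 of 105 MYB genes, 21 of 79 NAC genes and 26 of 67 WRKY genes, which are 19%, 26.6% and 38.8%. H3K27me3 was assigned to 61% of MYB, 41.8% of NAC and 52.2% of WRKY genes. Among genes with the mark, FIE was assigned to 17 of 64 MYB genes (26.6%), 16 of 33 NAC genes (48.5%) and 22 of 35 WRKY genes (62.9%), against 22.6% of all 7492 marked genes. BPC1 without FIE was found at 5 MYB genes and at 0 of 79 NAC and 0 of 67 WRKY genes, against 3.05% of all genes. The 10 wax and suberin MYB genes all had H3K27me3, and 4 of them had FIE. These differences between families were not tested.

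**Figure D1:**
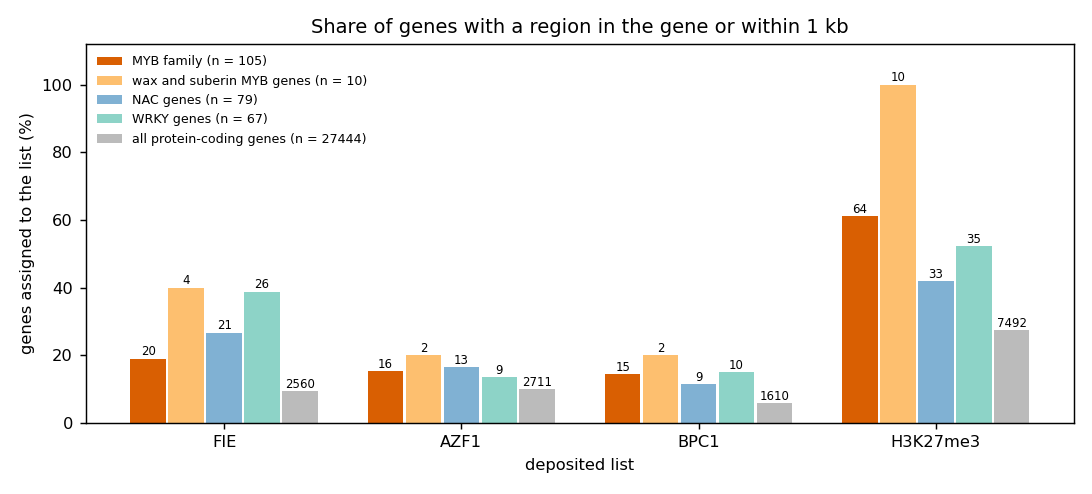
Bars give the percentage of genes assigned to each deposited list (y axis) for the 105 MYB genes, the 10 wax and suberin MYB genes, 79 NAC genes, 67 WRKY genes and all 27444 protein-coding genes, with the number of genes above each bar. The MYB bar stands at 61% for H3K27me3 and at 19% for FIE, against 27.3% and 9.33% of all protein-coding genes.

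Of the 64 marked MYB genes, 56 had at least 50% of the gene body inside an H3K27me3 region (87.5%, against 57.1% of all marked genes). The gene body was fully covered in 47 (73.4%, against 43.1%), and 7 had the mark only in the flanks (10.9%, against 29.4%). All 17 marked genes with FIE had at least 50% covered, and 15 were fully covered. Of the 47 marked genes without FIE, 39 had at least 50% covered and 32 were fully covered. The widest region at a marked MYB gene had a median width of 6070 bp for genes with FIE and 4639 bp for those without. The broadest domains were at MYB79 (21824 bp), MYB117 (19479 bp), MYB23 (18287 bp), MYB20 (17202 bp) and MYB42 (14085 bp), of which MYB20 and MYB42 are activators of lignin synthesis. The highest fold enrichments of the mark were at MYB5 (3.86), MYB89 (3.56), MYB118 (3.55), and at MYB24 and MYB115, which share one domain of 10484 bp with a fold of 3.52 (chromosome 5, 16136459 to 16146942). The highest rank was that of MYB5, at 57 of 3940 nuclear regions.

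FIE signal at MYB genes sat mostly in the gene and in the mark. The 20 genes held 33 FIE regions, 24 with the summit inside the gene (72.7%, against 59.1% over all pairs of a gene and a FIE summit), and 29 of the 33 overlapped H3K27me3. Their median width was 465 bp and their median fold 5.40, against 267 bp and 4.70 over all 5006 nuclear FIE regions. Taking the highest region per gene, the median was 6.14 over the 20 MYB genes and 4.78 over all 2560 assigned genes. NAC and WRKY genes with FIE had like medians, 6.30 over 21 and 5.72 over 26 genes. Of the 20 MYB genes, 17 also had H3K27me3 (85.0%, against 66.2% of all FIE genes). No such share was computed over all FIE regions, so the 29 of 33 regions in the mark have no background of their own. BPC1 was assigned to 10 of the 20, against 30.2% of all FIE genes, and AZF1 to 5 of the 20, against 25.7%.

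**Figure D2:**
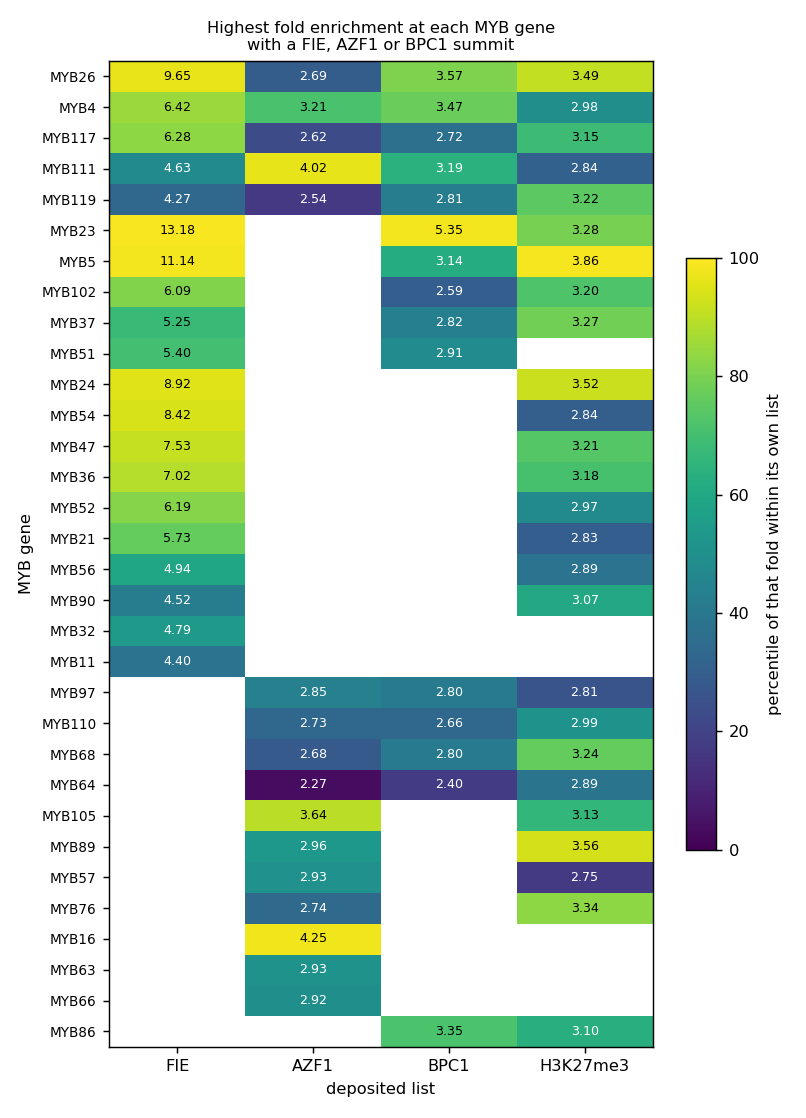
Rows are the 32 MYB genes with a FIE, AZF1 or BPC1 summit, columns are the 4 lists, numbers are the highest fold enrichment at the gene and colours its percentile within its own list (blank: not assigned). FIE folds run from 4.27 at MYB119 to 13.2 at MYB23, and the highest AZF1 fold, 4.25 at MYB16, stands in a row with no other list.

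The highest FIE folds of the family were at MYB23 and MYB5. MYB23, which acts in trichome formation and in the pattern of root hairs, had a FIE region of fold 13.2 (rank 43 of 5006; chromosome 5, 16127190 to 16128611). Its summit lay 95 bp outside the gene. The strongest BPC1 region at any MYB gene, of fold 5.35 (rank 43 of 2622; 16127512 to 16127723), had its summit 1 bp from that of FIE, and another BPC1 region of fold 4.04 lay in the gene. The closest relatives of MYB23 form subgroup 15 with it and had other patterns. MYB0, also known as GLABRA1 and needed for trichomes, had H3K27me3 (fold 3.40) and no protein, and MYB66, also known as WEREWOLF and needed for hairless root cells, had AZF1 (2.92) without FIE, BPC1 or the mark. MYB5, which acts in the seed coat and in trichomes, had a FIE region of fold 11.1 and 1989 bp (rank 93; chromosome 3, 4419805 to 4421793) with a second one of fold 4.17, and BPC1 at 3.14 and 2.80. The MYB5 gene lies wholly inside the annotated kinase gene MAPKKK7, so its regions belong as much to that gene. Of the 8 genes in the list of epidermis, trichome and cuticle regulators, FIE was assigned to MYB5 and MYB23, and 4 were in none of the lists. These classes held 19% and 33.3% of all MYB genes, and 9.33% and 63.1% of all genes.

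The next FIE folds were at the anther gene MYB26 and the stamen gene MYB24. MYB26, required for the wall thickening that opens the anther, had FIE at 9.65 over 1942 bp (rank 165; chromosome 3, 4576769 to 4578710), BPC1 at 3.57 in both of its regions, AZF1 at 2.69 and H3K27me3 at 3.49. Here the proteins did not share a summit: the nearest FIE and BPC1 summits were 239 bp apart and the nearest FIE and AZF1 summits 884 bp. MYB21, MYB24 and MYB57 (subgroup 19) drive stamen growth under jasmonate. MYB24 had FIE at 8.92 and 6.70, MYB21 had FIE at 5.73 and 4.62, and MYB57 had AZF1 at 2.93 and no FIE, all of them with H3K27me3. The FIE summits of MYB21 were also assigned to AT3G27809, annotated inside MYB21. The AZF1 summit of MYB57 lay 257 bp outside the gene and was also within 1 kb of AT3G01520. Of the 7 matched stamen and anther genes, 6 had the mark and 3 had FIE, beside 61% and 19% of all MYB genes (27.3% and 9.33% of all genes). MYB80, which acts in the tapetum, was in no list.

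**Figure D3:**
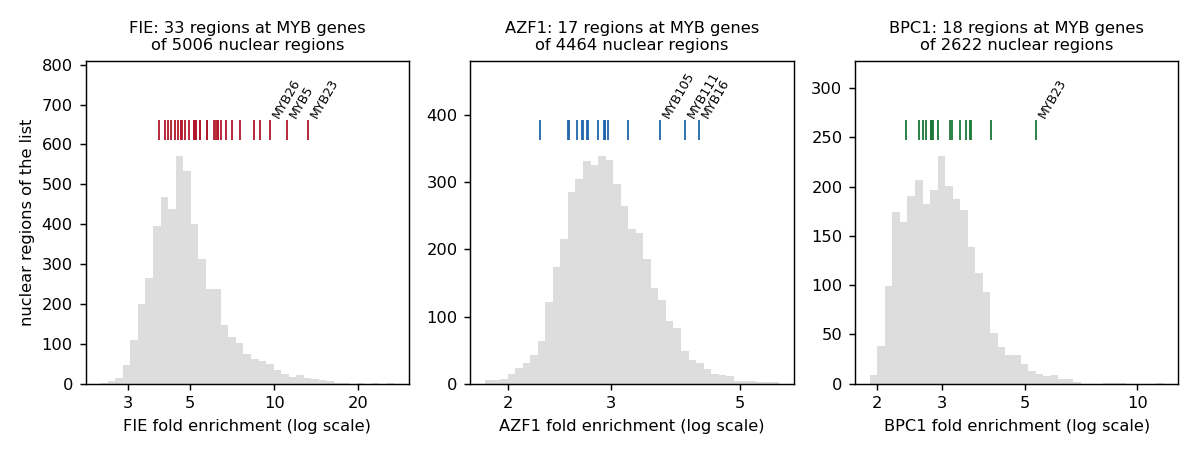
Grey histograms show the fold enrichment (log scale) of all nuclear regions of the FIE, AZF1 and BPC1 lists, and coloured ticks mark the 33, 17 and 18 regions at MYB genes, with the genes of the highest ones named. The FIE ticks reach 13.2 at MYB23, whereas the AZF1 ticks have a median of 2.85 beside 2.92 for the whole list.

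Secondary wall genes mostly had the mark. Of 13 matched members, 11 had H3K27me3, beside 61% of all MYB genes and 27.3% of all genes. A bound protein was at 4 of the 13, beside 32 of the 105 MYB genes (30.5%) and 4945 of all 27444 genes. FIE was at MYB26, MYB52 and MYB54, and AZF1 at MYB26 and MYB63. MYB54 had FIE at 8.42 (chromosome 1, 27601639 to 27602384) and MYB52 at 6.19 and 5.73, and both lacked the factors. The master switches MYB46 and MYB83 had H3K27me3 over domains of 7724 bp and 7090 bp and none of the 3 proteins. The same held for all 4 genes of subgroup 8, MYB20, MYB42, MYB43 and MYB85. The lignin activators MYB58 and MYB63 had no mark, and MYB63 had an AZF1 region of 2.93 with its summit 844 bp outside the gene, the farthest of any assigned AZF1 summit of the family, which was also near AT1G79190.

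In subgroup 21, the largest of those used, all 8 genes had H3K27me3, beside 61% of all MYB genes and 27.3% of all genes. FIE, AZF1 or BPC1 was at 7 of the 8, beside 3 of 3 genes in subgroup 19. Over the family a bound protein was at 32 of 105 genes (30.5%), and over all genes at 4945 of 27444. Within subgroup 21, FIE was at MYB52, MYB54, MYB56 and MYB117, and AZF1 at MYB89, MYB105, MYB110 and MYB117. The lists of FIE and AZF1 thus met at MYB117 alone. Counted in the gene body only, AZF1 was at 2 of the 8 and BPC1 at 1. MYB117, also known as LATERAL ORGAN FUSION1, and its partner MYB105 act in the boundaries between organs. MYB117 had 3 FIE regions of fold 6.28, 5.42 and 5.25, and the third of these shared its summit with AZF1 (2.62, 0 bp apart) and BPC1 (2.72, 1 bp apart), 127 bp outside the gene and within 1 kb of AT1G26790 too. MYB105 had AZF1 at 3.64 (rank 463 of 4464) and MYB89 at 2.96, both with the mark and without FIE. MYB56, a regulator of the quiescent centre of the root and of seed size, had FIE at 4.94 and 3.86. At MYB110, where AZF1 (2.73) and BPC1 (2.66) had summits 3 bp apart, the H3K27me3 region was only 230 bp wide and covered 16.7% of the gene.

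Subgroup 14 holds genes of axillary meristems and of the root. All 5 of its members had the mark, beside 61% of all MYB genes and 27.3% of all genes. MYB37, also known as RAX1, which starts axillary meristems, had FIE at 5.25 and 4.68 and BPC1 at 2.82, and its wide FIE region of 1707 bp covered chromosome 5 from 7696507 to 7698213. MYB36, the switch that makes endodermal cells build the Casparian strip, had FIE at 7.02 and 5.16 and no factor. MYB68, a root gene, had AZF1 (2.68) and BPC1 (2.80) with summits 24 bp apart and no FIE. MYB84 and MYB87 had the mark alone.

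**Figure D4:**
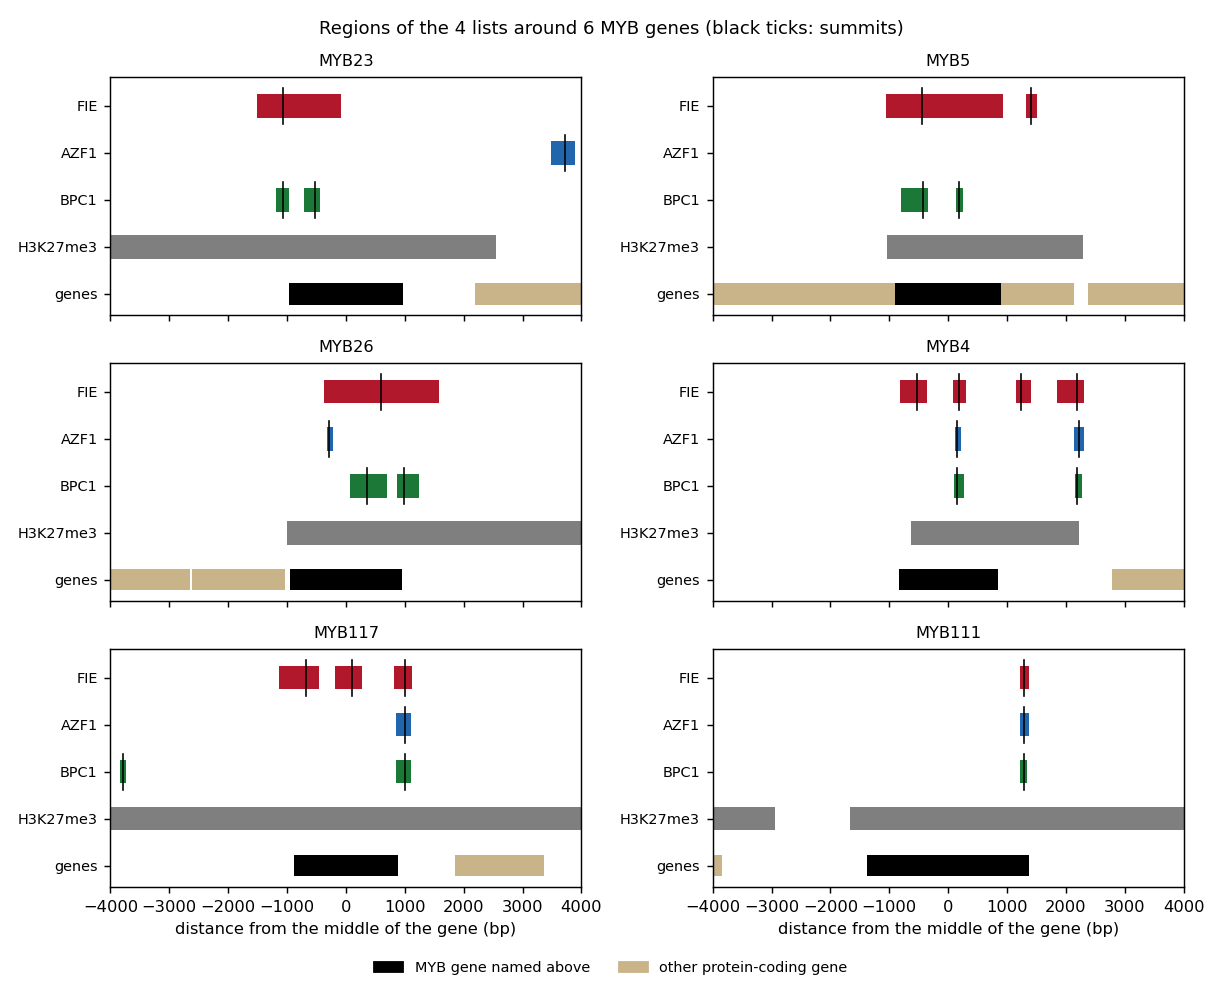
Regions of the 4 lists (coloured bars; black ticks are summits) and protein-coding genes (black: the MYB gene named above) by distance in bp from the middle of the gene, with no strand shown. At MYB111 the FIE, AZF1 and BPC1 summits stand within 4 bp of each other near one end of the gene, and at MYB26 the nearest FIE and AZF1 summits are 884 bp apart.

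Phenylpropanoid and flavonoid genes differed within each subgroup. MYB4, a repressor of sinapate ester synthesis, had FIE at 6.42, 6.27 and 4.04, and at the second of these sites (chromosome 4, 18054281 to 18054502) AZF1 (3.21) and BPC1 (3.47) lay with summits 31 bp and 27 bp from that of FIE. Its relative MYB32 had a FIE region of 4.79 and 125 bp without the mark, and MYB3, MYB6 and MYB7 were in no list. Among the flavonol activators, MYB111 had AZF1 at 4.02 (rank 171 of 4464), BPC1 at 3.19 and FIE at 4.63 in regions of 124 to 158 bp on chromosome 5, the FIE region from 20001420 to 20001564. MYB11 had FIE alone (4.40), also assigned to AT3G62615, annotated inside it, and MYB12 was in no list. The anthocyanin genes MYB90, MYB113 and MYB114 stand side by side, and all of them had H3K27me3, each in a region of its own. MYB90 had FIE as well, at 4.52.

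Glucosinolate regulators (subgroup 12) showed the mark at 4 of 6 genes, beside 61% of all MYB genes and 27.3% of all genes. MYB28 and MYB29, activators of the aliphatic branch, had H3K27me3 alone. MYB76 shared the domain of 4926 bp with MYB29 and also had AZF1 (2.74) with its summit 265 bp outside the gene. That AZF1 region lay inside a second H3K27me3 region of MYB76, 190 bp wide with a fold of 3.34. The AZF1 summit was also assigned to AT5G07710. In the indole branch, MYB51 had FIE at 5.40 and 5.14 and BPC1 at 2.91 without H3K27me3, MYB122 had the mark alone and MYB34 was in no list. MYB51, MYB11 and MYB32 were the only MYB genes with FIE and no mark (2.86%, against 3.15% of all genes).

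In the female gametophyte, MYB64 and MYB119 act together at the step when the embryo sac divides into cells. MYB119 had FIE (4.27), AZF1 (2.54) and BPC1 (2.81) with summits 4 to 8 bp apart, and MYB64 had AZF1 (2.27) and BPC1 (2.40) with summits 18 bp apart and no FIE, both with H3K27me3. The AZF1 fold at MYB64 was the lowest at any MYB gene. MYB115 and MYB118, which act in embryo and endosperm maturation, had the mark alone, and the synergid gene MYB98 was in no list. Of the 7 GAMYB-like genes (subgroup 18), which act in pollen and anthers downstream of gibberellin, 4 had the mark and none had FIE, beside 61% and 19% of all MYB genes, and with the gene body only 2 had the mark. The pollen tube gene MYB97 had AZF1 at 2.85 and 2.53 and BPC1 at 2.80, outside the H3K27me3 region that touched its window.

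**Figure D5:**
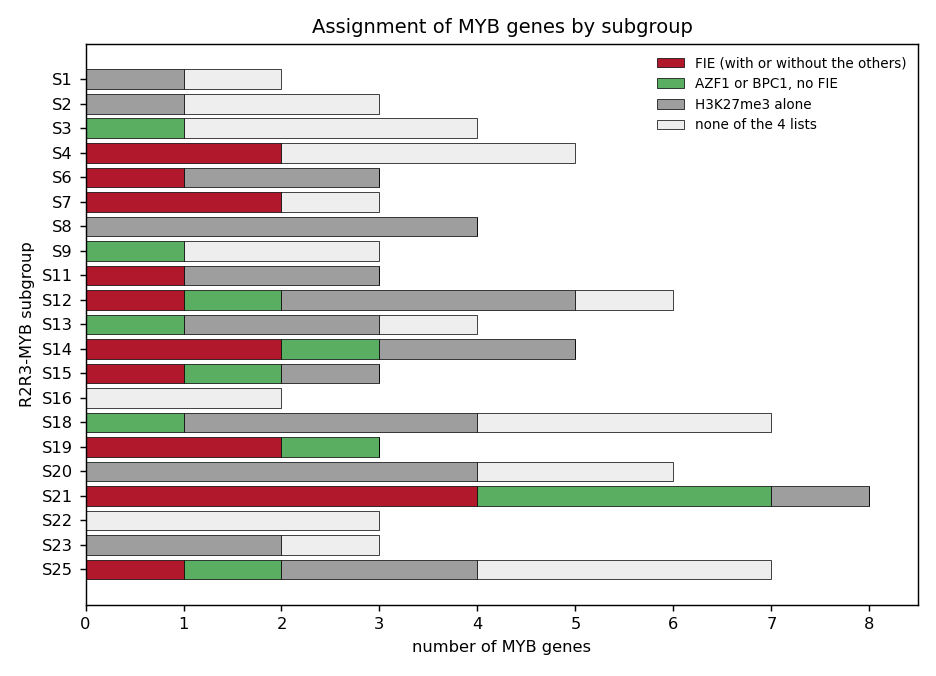
Bars give the number of MYB genes (x axis) in each of 21 subgroups of R2R3-MYB proteins (y axis), split into genes with FIE, genes with AZF1 or BPC1 but no FIE, genes with H3K27me3 alone and genes in no list. Subgroup 21 has 4 genes with FIE and none in the last class, and all 3 matched genes of subgroup 22 are in the last class.

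At MYB genes with several proteins, the shares with a common site lay near those over all genes, without a test. FIE and BPC1 regions overlapped at 10 of 10 shared MYB genes (92.6% of all 772 shared genes). Their summits were within 200 bp at 9 of the 10 (88.9% of all) and a median of 8 bp apart (12 bp over all). AZF1 and BPC1 regions overlapped at 8 of 9 shared MYB genes (95.7% of all 947 shared genes), and MYB26 was the exception. FIE and AZF1 regions overlapped at 5 of 5 (82.7% of all 659). AZF1 and BPC1 share the Col input and the kind of tag, and the part of these in their common sites was not tested.

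AZF1 without FIE was found at 11 MYB genes (10.5%, against 7.48% of all genes). MYB16, MYB63 and MYB66 had AZF1 and nothing else (2.86%, against 4.32% of all genes). MYB16, which shapes petal epidermal cells and the cuticle, had the highest AZF1 fold of the family, 4.25 (rank 97 of 4464; chromosome 5, 4975447 to 4975648), and its relatives MYB17 and MYB106 were in no list. BPC1 without FIE and without AZF1 was found at MYB86, with a fold of 3.35 inside an H3K27me3 domain of 11218 bp. Of 13 matched stress and abscisic acid genes, 7 were in no list, beside 33.3% of all MYB genes and 63.1% of all genes. The 7 were MYB2, MYB13, MYB14, MYB60, MYB70, MYB73 and MYB77. FIE in this group was at MYB52, named above, and at MYB102, a gene of wound and osmotic stress, which had FIE (6.09), BPC1 (2.59) and H3K27me3. MYB47, in no subgroup used here, had FIE at 7.53 and 5.17 with the mark.

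FIE was absent from 11 of the 21 subgroups, which hold few genes each, beside the 19% of the family and 9.33% of all genes assigned to it. In subgroup 20, whose genes respond to jasmonate, phosphate or stress, MYB62, MYB78, MYB108 and MYB116 had H3K27me3 alone, and MYB2 and MYB112 were in no list. In subgroup 13, MYB50 and MYB61 had the mark only in the flanks, while MYB86 had the mark and BPC1, and MYB55 was in no list. MYB61 acts in seed coat mucilage and in the control of stomatal aperture. MYB1 and MYB25 of subgroup 23 likewise had the mark only outside the gene body, and so did MYB33, MYB48 and MYB97. Subgroups 16 (MYB19 and MYB45) and 22 (MYB70, MYB73 and MYB77) were in no list.

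Annotations of 13 MYB genes overlapped another protein-coding gene, and 6 of 33 FIE, 8 of 17 AZF1 and 5 of 18 BPC1 summits at MYB genes were also assigned to another gene. The reach of 1 kb decided 1 of 20 FIE genes (MYB23), 5 of 16 AZF1 genes (MYB57, MYB63, MYB76, MYB89 and MYB117), 1 of 15 BPC1 genes (MYB117) and 7 of 64 H3K27me3 genes. The protein summits, and for the mark the whole regions, lay outside these genes. The FIE region of MYB23 and the AZF1 and BPC1 regions of MYB117 still reached into the gene. The assigned FIE summit farthest from its gene lay 630 bp outside, at MYB56, and the nearest FIE summits just beyond 1 kb were at 1229 bp for MYB79, 1680 bp for MYB99 and 1709 bp for MYB67 (folds 4.78, 5.05 and 5.86). For H3K27me3 the farthest assigned region began 753 bp from MYB48, and 9 unassigned MYB genes had a region between 1 and 2 kb away, the nearest at 1095 bp from MYB2.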

How the data were processed

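Per the submitters' processing notes, reads were handled with Bowtie2, bedtools and MACS2 2.1.1.20160309 on the TAIR10 build with settings, and a way of combining replicates, that the sources used here do not name. The authors' deposited lists give per region a fold enrichment over control (a ratio) and a score (−log10 q times 10, decimals dropped). As deposited by the authors, they also give −log10 p (not used here) and −log10 q values. The lowest −log10 q in each list is about 10, which is its least significant region. The authors' 3 narrow lists, as deposited, also give the summit. Regions on the 5 nuclear chromosomes were used: 5006 FIE, 4464 AZF1, 2622 BPC1 and 3940 H3K27me3. Coordinates are 1-based on TAIR10.

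Gene names, positions and lengths came from the RefSeq table of TAIR10.1, assuming the same numbering of the nuclear chromosomes in both; no gene coordinate is printed. Strand and sequence were not used here, so planned motif, protein and upstream counts were not made. Assignment was computed with Python 3.11.15, numpy 2.4.6 and pandas 2.3.3 and tested on simulated data.

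Members and lists were chosen with earlier results of these data known. Of 92 genes in 21 subgroups and of the functional lists, both from textbook knowledge, those with a MYB symbol among the members were matched (87 in subgroups; 18 members had none). Named genes were those in all 4 lists, those of highest fold or width per list, those with single lists, and members of subgroups that differed within. No p-value was computed, as the assignment made the groups.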

Additional observations from a re-analysis of the deposited data

How the results depend on the processing

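Of 66 recomputed counts over all members, 59 stayed within 1.5 times the reported one. They covered the gene body alone, extensions of 500 bp and 2 kb, any overlap in place of the summit and the nearest gene only. They also covered 50% of the gene body in H3K27me3, members taken by synonym and gene-poor windows left out. Leaving out gene-poor windows could not change a count, because none of the 105 members lies there. Counts with members taken by synonym were over 115 genes in place of 105. The other 7 of the 66 came from keeping only regions with a −log10 q above the median of their list, which leaves fewer regions by construction. MYB genes then numbered 8 for AZF1 (4.42% of all genes), 7 for BPC1 (2.81%), 42 for H3K27me3 (15.7%), 11 for FIE with H3K27me3 (2.78%), 2 for AZF1 with BPC1 (1.30%), 1 for all 4 lists (0.437%) and 55 for none (78.7%), while FIE kept 15. With the gene body alone FIE was assigned to 19 genes, losing MYB23, whose summit lies 95 bp outside. Highest folds were recomputed only for genes still assigned to the list. The gene body alone dropped 1 FIE, 5 AZF1 and 1 BPC1 genes, and the cut at the median −log10 q dropped 5, 8 and 8. Of the 74 highest folds left, 68 were equal to those reported. The other 6 were lower because the highest region was left out, at MYB23 (BPC1 4.04), MYB37, MYB51, MYB52 and MYB56. No paired analysis was possible because each list has no replicate column, and for the same reason no replicate could be left out. Of 84 subgroup counts taken with the gene body only, 75 stayed within 1.5 times and 9 moved: FIE in subgroup 15 to 0, AZF1 in subgroups 3, 12 and 19 to 0 and in 21 to 2, BPC1 in 21 to 1, and H3K27me3 in subgroup 13 to 1, in 18 to 2 and in 23 to 0. The 75 include every count that was 0 from the start, which could not change because the gene body lies inside the window. Depth is unknown, so absence from a list says only that no region passed its threshold.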

Other observations

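The gene table names 10 further MYB genes by other symbols and lists their MYB number only as a synonym, so they were not among the 105. AS1, a gene of leaf polarity, had FIE at 3.48 and AZF1 at 2.50 in nearly the same interval (chromosome 2, 15784335 to 15784524 for FIE) and no H3K27me3. RAX2, a relative of MYB37 in axillary meristems, had FIE at 4.69, AZF1 at 2.40 and the mark. AtMYB103, a secondary wall gene, had FIE at 5.10 and the mark, and the stomatal gene FLP had AZF1 at 2.61 alone. The anthocyanin gene PAP1 and the seed coat gene TT2 had H3K27me3 alone. HOS10, TDF1, LAF1 and MYBR1 were in no list. BPC1 was assigned to 0 of these 10, beside 15 of the 105 MYB genes described above (14.3%) and 5.87% of all genes. A set of 10 genes is too small to tell 0 from these shares, and no test was run.

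Neighbouring MYB genes did not always share an assignment. MYB23 and MYB24, with 1 gene between them, both had FIE, and MYB115, next to MYB24 in the same H3K27me3 domain, had none. MYB21 had FIE and its neighbour MYB118, 14.9 kb away, had the mark alone. MYB81 had the mark and its neighbour MYB104, 3.93 kb away, was in no list.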
